A study of Mus musculus with 12 samples.

Results

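Bone marrow-derived macrophages of mice homozygous for the COQ6 substitution D316Y were compared with and without lipopolysaccharide (LPS), the cell wall lipid of Gram-negative bacteria. The 6 libraries compared were all the D316Y libraries among the 12 of the study: 3 of unstimulated cells and 3 of cells given 100 ng/mL LPS for 24 h. Marrow was freed of red cells and cultured for 6 days with medium conditioned by L929 fibroblasts, a source of macrophage colony-stimulating factor, so both groups carry the substitution and the same growth factor. Wild-type (WT) cells, also 3 unstimulated and 3 LPS libraries, were grown and treated alike and serve here only as the reference response. The labels name neither the sex, age or number of the mice nor whether replicates came from separate animals, so p-values measure the spread between these libraries, which may be technical. Of the 12441 genes in the table, 11795 averaged 0 log2 CPM or more in one of the D316Y groups and were tested (CPM, read counts scaled to library size).

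LPS is handed by CD14 to the receptor complex of TLR4 and MD-2, which signals through the adaptor MyD88 to NF-kB and MAP kinases, and from endosomes through TRIF to IRF3 and interferon-β. In macrophages the first wave of cytokine genes is followed over hours by interferon-induced genes, a shift towards glycolysis with synthesis of itaconate and nitric oxide, and feedback inhibitors that damp the signal. COQ6 is a flavin-dependent monooxygenase that hydroxylates the ring of coenzyme Q, the lipid that carries electrons from complexes I and II and other dehydrogenases to complex III.

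The libraries held 35.3 M to 42.6 M reads in the table. LPS lay along the first principal component of the 6 libraries, with 82.8% of the variance, and unstimulated replicate 1 stood apart on the second, with 8.31%. That library had 0.949% of its reads on mitochondrially encoded genes, against 2.97% and 2.21% in the other unstimulated libraries and 1.02% to 1.10% with LPS. All 10 macrophage markers were measured, with summed levels of 42985 to 44426 CPM without and 48541 to 58447 CPM with LPS. Of these markers, 5 were higher with LPS and 1, Cd68, lower. Sums of marker genes, here and below, are CPM scaled to the reads in the table. Single genes in log2 CPM use the library sizes of the deposited values, so sums and single-gene differences cannot be compared directly. Genes that mark red cells and mast cells were not analysed here. In RNA from bulk cultures, fewer cells of a type and less RNA per cell cannot be told apart.

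After 24 h of LPS, 4524 of the 11795 genes differed in limma at an adjusted p under 0.05, which is 38.4% of those tested. Such genes are said to have passed. The differences are LPS minus unstimulated on the log2 scale. Genes that were higher numbered 2287 (19.4%) and those that were lower 2237 (19%), with median differences of 0.97 and -1.08. At least 4-fold differences that passed were found in 412 higher and 449 lower genes, and at least 64-fold differences in 40 and 18. The 2 groups of libraries did not overlap for 6231 genes, 52.8% of those tested, so a lack of overlap alone is common here.

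**Figure D1:**
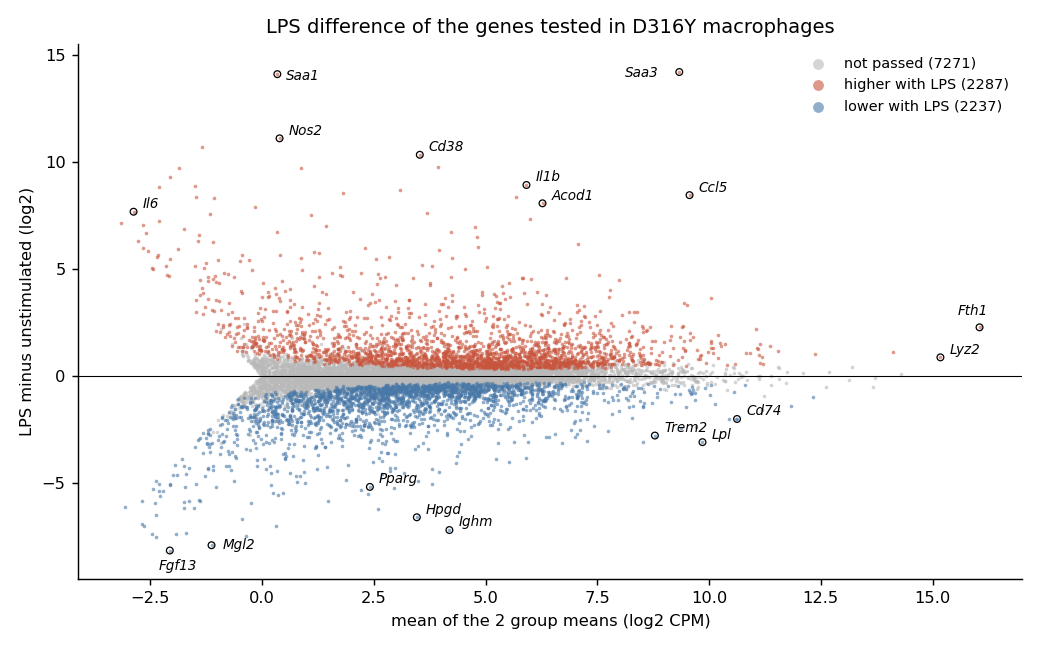
LPS minus unstimulated difference (log2, vertical) against the mean of the 2 D316Y group means (log2 CPM, horizontal), 1 point a gene, red where higher and blue where lower at an adjusted p under 0.05 and grey otherwise. The 2287 red and 2237 blue points spread over the whole range of levels, and Saa3 and Saa1 lie highest at 14.19 and 14.09. Saa1 had no read in any unstimulated library, so its plotted value depends on the count added before taking logs.

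The split into higher and lower genes rests on the scale of the deposited values. Their effective library sizes were above the reads in the table without LPS and below them with LPS. When the reads in the table were used as library size instead, an alternative chosen after seeing the data, the median of all tested genes moved by -0.52 and 1052 genes were higher against 5953 lower. Differences below are on the deposited scale, relative to a median of -0.03 over all genes tested, and a list whose median has the other sign on the scale of table reads is named as such.

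A few transcripts took up much of the RNA. Genes that rose held 24.1%, 25.6% and 27.5% of the reads in the 3 unstimulated libraries and 56.8%, 56.0% and 55.5% with LPS, whereas genes that fell went from between 16.5% and 20.4% to between 5.54% and 5.72%. Fth1, the ferritin heavy chain that stores iron, supplied 3.15%, 4.57% and 4.40% of the reads without LPS and 14.1%, 13.4% and 12.5% with it. Saa3, an acute-phase serum amyloid A made by macrophages, went from at most 0.000671% to 7.81%, 7.58% and 8.45%. Per length, Fth1 had the highest level of all genes with LPS at 38412 ± 2350 RPKM (SD, n = 3; reads per kilobase of exon, scaled to the reads in the table), Lyz2, lysozyme, came next at 34080 ± 3690 and then Saa3 at 30493 ± 1721; the spreads of Lyz2 and both neighbours overlap. The 10 genes with most reads held 34.7% to 35.4% of a library with LPS, against 19.9% to 20.5% without.

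**Figure D2:**
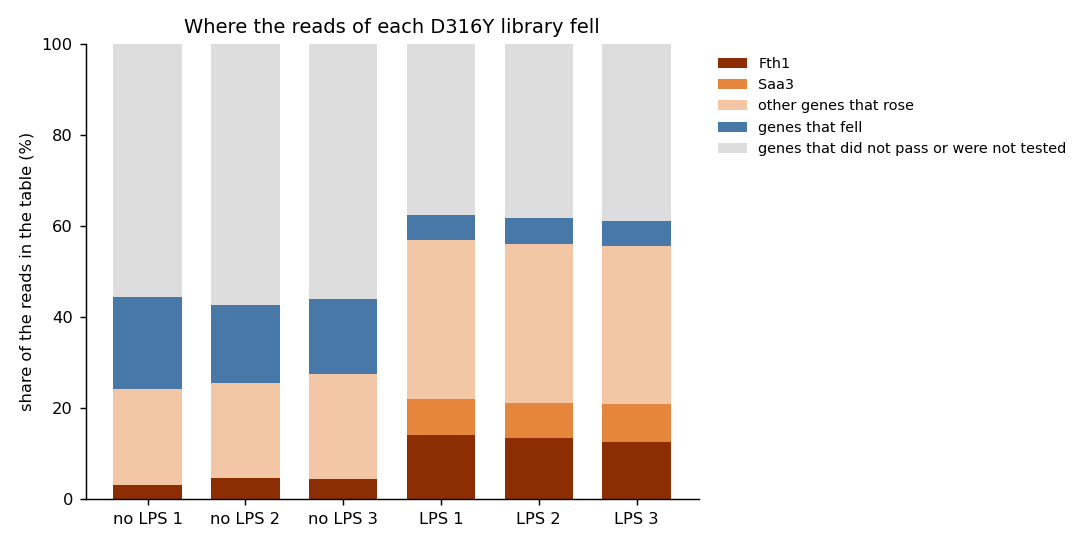
Share of the reads in the table (percent, vertical) in each of the 6 D316Y libraries (bars), divided into Fth1, Saa3, all other genes that rose, genes that fell, and genes that did not pass or were not tested. In the 3 LPS libraries the genes that rose make up 55.5% to 56.8% of a bar. Genes that rose and genes that fell were picked by their differences in these same libraries.

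Saa3 (chr7:46711998-46715700, minus strand, GRCm38) had the largest fitted difference, though for Saa1, below, only a lower bound can be given. Its level was 2.04, 2.35 and 2.32 log2 CPM without LPS and 16.43, 16.38 and 16.48 with LPS, a difference of 14.19 (SE 0.22, adjusted p 6.02e-14). All 3 LPS libraries lay at one level, far above the others. The near-identical paralogs Saa1 and Saa2 had 0 reads in every unstimulated library and were at least 2907-fold and at least 105-fold higher with LPS, taking 3 reads per library as the floor; reads between these copies may have been split. The acute-phase and antimicrobial genes as a list held the highest median, 5.98, with 15 of 17 higher and 1 lower. Among them were haptoglobin Hp (difference 8.36), which binds free hemoglobin, Lcn2 (9.76), the lipocalin that takes iron-loaded siderophores from bacteria, the complement protease Cfb (8.52) and Slpi (5.98), a secreted protease inhibitor. Marco, a scavenger receptor for bacteria, was at 1.39, 0.50 and 2.04 log2 CPM without and 8.04, 8.21 and 8.45 with LPS. The member that passed in the other direction was Prdm1 (-0.80). Several acute-phase genes are also made by neutrophils: of 7 neutrophil markers measured 4 were higher and 1 lower. On the scale of table reads the sums of all 7 were 93.9 to 120 CPM without and 181 to 209 CPM with LPS. Ly6g, Elane and Mpo were not analysed here, and the part of neutrophils in these rises was not tested.

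On the sensing side, the receptor gene itself did not pass. Tlr4 was at 6.15, 5.91 and 5.74 log2 CPM without LPS and 5.76, 6.02 and 6.15 with it, and the groups overlapped (difference 0.04, SE 0.16, adjusted p 0.862). On the scale of table reads its difference was -0.47 and passed. Of 28 sensing and adaptor genes, 10 were higher and 2 lower, with a median of 0.18 that had the other sign (-0.33) on the scale of table reads. Irak3, the kinase-like protein that blocks release of IRAK signalling from the receptor, rose most, from 3.53, 3.10 and 3.48 to 7.02, 7.13 and 7.17 log2 CPM (3.74, SE 0.18, adjusted p 5.75e-09). Tank (2.08), an adaptor that restrains TRAF signalling, Tlr1 (1.21), which pairs with TLR2 for bacterial lipopeptides, Tlr3 (1.81), the receptor for double-stranded RNA, Cd14 (1.07) and Myd88 (1.07) rose as well. Tlr13, which senses bacterial ribosomal RNA, fell by 0.91.

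Among NF-kB subunits and their inhibitors, 11 of 21 were higher and 3 lower, with a median of 1.04. The inhibitor genes led: Nfkbia, which encodes IκBα, went from 7.26, 7.43 and 7.98 to 9.68, 9.71 and 9.46 log2 CPM (2.06, SE 0.19, adjusted p 1.91e-06), Nfkbie rose by 1.33 and Tnip1, a partner of the deubiquitinase A20, by 1.53. Both groups of libraries were apart for each of these. Zfp36, which encodes the mRNA decay factor tristetraprolin, fell by 0.83. In the list of MAP kinase phosphatases and AP-1 factors, 6 of 24 were higher and 9 lower. Batf (3.32) and Batf2 (2.64), partners of JUN, and Ier3 (2.84) rose, while the immediate-early factors Fos (-1.58) and Egr2 (-4.92) fell. Egr2 was at 6.59, 5.91 and 5.33 log2 CPM without and 0.53, 1.94 and 0.60 with LPS.

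Cytokine genes at this late time point split into strongly induced and weakly induced members. Of 24 tested, 18 were higher and 3 lower, with a median of 1.62, or 3.08-fold. Il1b, the interleukin cleaved by the inflammasome, was at 1.21, 1.28 and 1.89 log2 CPM without LPS and 10.40, 10.40 and 10.31 with it (8.91, SE 0.23, adjusted p 9.74e-12). Il1a, from 0, 20 and 3 reads to 2205, 2372 and 1315, rose by 9.72 (SE 0.99). Both interleukin-1 genes were low in all 3 unstimulated libraries, and the groups did not overlap. Il6 had no read in any unstimulated library and 89, 68 and 53 reads with LPS, at least 33.9-fold higher. Il12a, the p35 subunit of interleukin-12, had 0 reads against 183, 157 and 123, at least 74.8-fold higher, and its partner subunit Il12b rose by 2.54 (SE 0.51). Ifnb1, interferon-β, went from -2.06, -1.43 and -1.75 to 3.00, 3.15 and 1.85 log2 CPM (4.41, SE 0.48, adjusted p 9.42e-06). Tnf, the classic first-wave cytokine, was only modestly above its resting level, at 4.33, 4.35 and 3.95 against 3.38, 3.24 and 3.54 (0.82, SE 0.21, adjusted p 0.00647), and did not pass on the scale of table reads (adjusted p 0.206). Il10, the anti-inflammatory interleukin, was lower by -1.05 (adjusted p 0.0142) but not past the threshold without LPS replicate 3 or without unstimulated replicate 3 (adjusted p 0.060 and 0.0603).

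Of 20 chemokine genes 14 were higher and 3 lower, with a median of 1.80. Ccl5, which attracts T cells and monocytes, was at 5.36, 4.86 and 5.82 log2 CPM without and 13.89, 13.84 and 13.60 with LPS (8.43, SE 0.25, adjusted p 2.54e-11), and per length it ranked 5 among all genes with LPS. The interferon-induced ligands of CXCR3 rose by 7.88 for Cxcl11, 3.28 for Cxcl10 and 1.88 for Cxcl9. The neutrophil attractants Cxcl3 and Cxcl2 rose by 5.62 and 1.80, and the monocyte attractants Ccl8, Ccl12 and Ccl2 by 5.85, 4.35 and 1.57. Replicate 3 was the lowest of the LPS libraries for Ccl8, Ccl12, Ccl2 and Cxcl10, with 6.05 against 7.29 and 7.33 for Ccl8. The eosinophil attractant Ccl24 fell by 3.17, from 0.47, 0.43 and 0.51 to -3.86, -3.07 and -1.17.

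**Figure D3:**
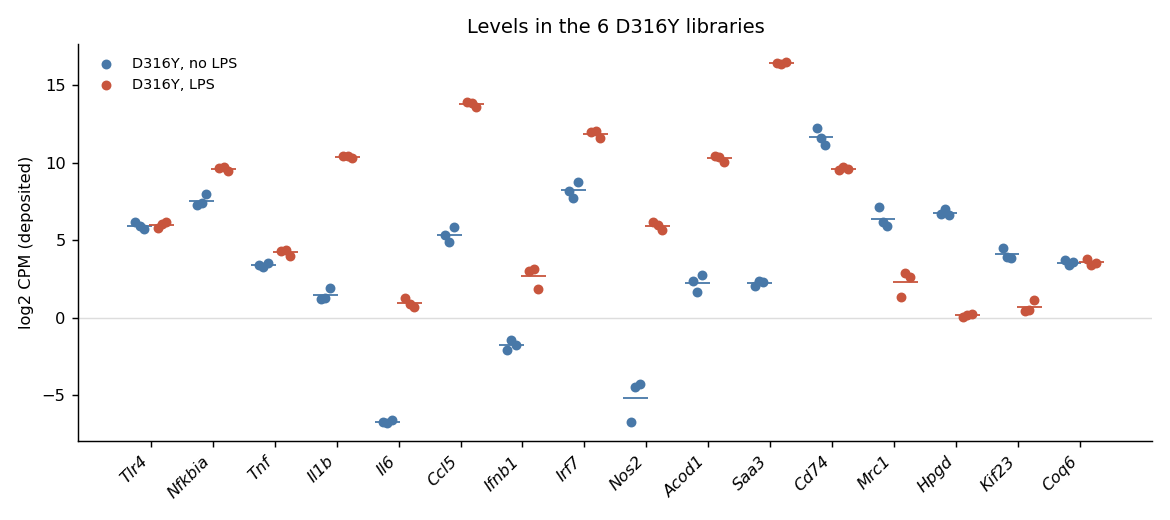
Level (log2 CPM, vertical) of 16 genes in each D316Y library, blue for the 3 unstimulated and red for the 3 LPS libraries, with a bar at each group mean. Values near -6.7 stand for 0 reads; Tlr4 and Coq6 overlap between the groups and the other 14 genes do not.

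Promoters of 6 genes are shown with motifs that a pattern search found, to set letters beside the genes that moved; a match is not evidence of a bound factor. For NF-kB the letters GGNNTTTCC were searched on both strands of 300 bases (250 before to 50 after the RefSeq start, GRCm38.p6). They occurred in 8 of 26 promoters of the cytokine list (30.8%) and 6 of 13 of the chemokine list (46.2%), against 5.82% of all 32851 promoters and 6.28% of those of genes tested. Before the start alone and on the gene strand alone the share of the cytokine list was 19.2%, and that of the chemokine list was 46.2% and 30.8%. Capitals mark the match, which begins 43 bases before the start in Il6 (chr5:30012864-30013163, plus strand) and lies after the start in Il12a (chr3:68691174-68691473, plus strand).
Il6: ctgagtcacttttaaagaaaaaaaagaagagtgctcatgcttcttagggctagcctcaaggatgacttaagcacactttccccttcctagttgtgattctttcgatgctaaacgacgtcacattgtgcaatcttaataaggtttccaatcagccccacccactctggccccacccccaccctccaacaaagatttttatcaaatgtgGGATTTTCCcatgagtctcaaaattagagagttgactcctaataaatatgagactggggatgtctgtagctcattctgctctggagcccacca
Il12a: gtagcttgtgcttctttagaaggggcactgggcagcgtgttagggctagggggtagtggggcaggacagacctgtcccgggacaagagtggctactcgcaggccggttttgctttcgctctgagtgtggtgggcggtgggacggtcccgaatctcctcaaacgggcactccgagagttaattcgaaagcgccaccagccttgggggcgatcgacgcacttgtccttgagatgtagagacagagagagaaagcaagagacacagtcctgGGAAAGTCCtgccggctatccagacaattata

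Receptor genes moved in both directions. The formyl peptide receptors Fpr1 (7.31) and Fpr2 (6.49), which detect bacterial and mitochondrial peptides, rose together, and so did Ccr7 (3.46), which guides cells towards lymph nodes. Fpr1 went from 2.17, 2.03 and 2.81 to 9.71, 9.62 and 9.61 log2 CPM; the 3 LPS libraries lay close together. Ccr2, the receptor for CCL2, fell by 1.72. Over the list of chemoattractant receptors, 7 of 17 were higher and 7 lower. Of 27 receptors for cytokines and growth factors, 12 were higher and 6 lower, with a median of 0.43 that became -0.15 on the scale of table reads. Il15ra (3.76), which presents interleukin-15, and Csf3r (1.59), the granulocyte colony-stimulating factor receptor, rose, and the shared signalling chain Il6st (-2.21) and Tgfbr1 (-2.21) fell. Csf1r, through which these cells are kept alive in culture, was at 11.29, 10.47 and 10.47 against 10.56, 10.66 and 10.87 log2 CPM, and the groups overlapped (adjusted p 0.917). Il23r, a receptor gene of T cells by its usual description, had 0 reads in each unstimulated library and 611, 581 and 519 with LPS, at least 278-fold higher. Of 10 T and NK cell markers only 2 were measured, and only 1 of these, Cd4, was tested (lower). On the scale of table reads these 2 summed to 6.95 to 11.0 CPM without and 2.34 to 3.40 CPM with LPS. The other markers were not analysed here, and the part of T cells in the rise of Il23r was not tested.

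Interferon-induced genes rose almost as a block. Of 41 tested, 40 were higher and 0 lower, with a median of 1.59 or 3.02-fold, set against 19.4% of all genes; on the scale of table reads 32 were higher. Oasl1, which limits translation of Irf7, rose most, from 3.66, 3.02 and 4.57 to 8.47, 8.52 and 7.84 log2 CPM (4.53, SE 0.38, adjusted p 7.42e-07). Usp18, which removes ISG15 from proteins and blocks the interferon receptor, rose by 2.98, Isg20 by 3.35, Zbp1, a sensor of Z-form nucleic acid, by 3.24, Ifit1 by 2.82 and the antiviral enzyme Rsad2 by 2.37. Irf7, the factor that amplifies interferon production, was at 8.20, 7.71 and 8.76 without and 11.95, 12.02 and 11.59 with LPS (3.63, SE 0.28). In every one of these genes unstimulated replicate 2 was the lowest library and unstimulated replicate 3 the highest of its group. The feedback inhibitor Socs3 rose by 6.70 and the kinase Jak2 by 2.94, whereas Irf4 fell by 3.58; in their list of 20, 10 were higher and 1 lower, and the median of 0.46 was -0.05 on the scale of table reads. Guanylate-binding proteins and immunity-related GTPases, which attack vacuoles of intracellular microbes, had 14 of 15 higher and a median of 2.13. Gbp2 rose by 2.55 and Tgtp2 by 2.86, and Gbp8 (-0.10) was the member that did not pass; several of these genes are close copies (Tgtp1 and Tgtp2, the Gbp cluster), so their separate values are uncertain.

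The letters GAAANNGAA, a core of the interferon-stimulated response element, were searched in the same way. They lay in 21 of 35 promoters (60%) of 30 interferon-induced genes, against 8.56% of all promoters and 7.52% of those of genes tested, and in 40% against 7.13% when only the 250 bases before the start were searched. Ifi44 (chr3:151749861-151750160, minus strand), which rose by 3.85, and Isg15 (chr4:156200769-156201068, minus strand), which rose by 2.99, are shown. They were picked by the size of their difference among list members that passed and carry a match. In Isg15 the capitals hold 3 overlapping matches, and the start of the Ifi44 window is a simple repeat.
Ifi44: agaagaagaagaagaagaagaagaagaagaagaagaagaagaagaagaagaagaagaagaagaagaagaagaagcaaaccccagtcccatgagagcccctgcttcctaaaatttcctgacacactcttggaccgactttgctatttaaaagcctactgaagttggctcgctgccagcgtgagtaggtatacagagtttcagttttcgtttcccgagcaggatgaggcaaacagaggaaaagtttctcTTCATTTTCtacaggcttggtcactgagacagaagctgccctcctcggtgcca
Isg15: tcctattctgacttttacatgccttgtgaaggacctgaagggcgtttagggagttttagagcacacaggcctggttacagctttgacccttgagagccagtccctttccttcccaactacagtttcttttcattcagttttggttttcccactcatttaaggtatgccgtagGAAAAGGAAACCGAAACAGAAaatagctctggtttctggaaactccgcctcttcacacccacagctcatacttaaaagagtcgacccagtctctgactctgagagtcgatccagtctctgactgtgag

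Antigen presentation divided by class. Of 22 genes for MHC class I and the immunoproteasome, 20 were higher and 0 lower, with a median of 1.32. H2-T22 rose by 2.95, H2-Q7 by 4.31 and H2-Q6 by 4.24 (near copies of each other, hence uncertain), and Psme2, a proteasome activator, by 1.63. For MHC class II, 0 of 12 were higher and 7 lower, with a median of -0.89. Ciita, the coactivator that switches class II genes on, went from 4.57, 4.81 and 4.19 to 1.07, 1.79 and 1.46 log2 CPM (-3.08, SE 0.25, adjusted p 6.19e-07). Its targets were lower too, with H2-Aa at -2.35, H2-Eb1 at -2.20, H2-Ab1 at -1.40 and the invariant chain Cd74 at -2.03. Per length, Cd74 ranked 23 among all genes without LPS and 129 with it. Dendritic cells also express these genes, and their part in the class II result was not tested. On the scale of table reads, the 6 measured dendritic markers summed to 72.4 to 125 CPM without and 31.0 to 37.3 CPM with LPS. Of these markers 3 were lower and 2 higher. Of the costimulatory and checkpoint ligands, Cd274, which encodes PD-L1, rose by 3.21 and Cd40 by 1.94. Cd83 fell from 7.17, 7.06 and 7.37 to 3.41, 3.26 and 3.20 (-3.91, SE 0.13), and the checkpoint receptor Havcr2 fell by 3.15.

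Metabolic genes of the activated macrophage were among the steepest rises. Nos2, the inducible nitric oxide synthase, had 0, 2 and 2 reads without LPS and 2679, 2378 and 1626 with it, a difference of 11.09 (SE 0.82, adjusted p 2.64e-07). Acod1, which makes itaconate, rose from 2.36, 1.66 and 2.73 to 10.45, 10.39 and 10.06 log2 CPM (8.05, SE 0.23, adjusted p 2.48e-11). Both arginases, which compete with NOS2 for arginine, rose too: Arg2 by 5.43 (SE 0.17) and Arg1 by 5.71 (SE 0.69). Ass1, which rebuilds arginine from citrulline, rose by 4.55, and the polyamine enzyme Odc1 fell by 1.20. Cd38, an ectoenzyme that consumes NAD, went from 12, 18 and 20 reads to 14020, 16699 and 13538 (10.32, SE 0.29). Of 32 genes of glycolysis and the hypoxia response, 24 were higher and 1 lower, with a median of 1.26 or 2.40-fold. Pfkfb3, which raises the activator of phosphofructokinase, rose by 3.87, the lactate exporter Slc16a3 by 3.76, the mitophagy receptor Bnip3 by 2.92 and the glycolytic enzyme Pgam1 by 1.55.

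Genes of coenzyme Q itself were mostly unresolved. Coq6 (chr12:84361657-84373796, plus strand, GRCm38) was at 3.71, 3.37 and 3.60 log2 CPM without LPS and 3.81, 3.41 and 3.53 with it, and the groups overlapped (0.03, SE 0.15, adjusted p 0.913). On the scale of table reads Coq6 was lower (-0.49, adjusted p 0.00988). These reads cannot show whether the transcripts carry the substitution. Of 15 genes of coenzyme Q synthesis 3 were higher and 0 lower, 20% of them against 19.4% of all genes. Coq2, which attaches the isoprenoid tail, rose by 1.29 (SE 0.23, adjusted p 6.15e-04), and the kinase-like genes Coq8a (0.77, adjusted p 0.0173) and Coq8b (0.43, adjusted p 0.0396) lay near the threshold. Coq8a did not pass without LPS replicate 3, unstimulated replicate 2 or unstimulated replicate 3 (adjusted p 0.0585, 0.0569 and 0.0748). Coq8b did not pass in a fit of the D316Y libraries alone (adjusted p 0.0583) or without any of the LPS libraries or unstimulated replicates 1 and 2 (adjusted p 0.0753 to 0.141). Neither passed on the scale of table reads. The list median of 0.20 was -0.31 on the scale of table reads. Of the dehydrogenases that pass electrons to coenzyme Q, 4 of 12 were higher and 2 lower (median 0.07, and -0.45 on the scale of table reads). Gpd2, the mitochondrial glycerol-3-phosphate dehydrogenase, rose from 4.76, 4.39 and 4.35 to 6.95, 6.88 and 7.19 (2.51, SE 0.18, adjusted p 2.26e-07). Aifm2, the ferroptosis suppressor that reduces coenzyme Q at membranes, rose by 1.16 and the complex II subunit Sdhb by 0.91, whereas Prodh, proline dehydrogenase, fell by 1.71 and the electron-transfer flavoprotein Etfb by 0.62.

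Respiratory chain genes are encoded in the nucleus and in the mitochondria. Of 37 nuclear complex I genes 20 were higher and 0 lower (median 0.56), and of 36 genes of complexes III to V 18 were higher and 0 lower (median 0.62). Ndufs3 rose by 1.04 and Cox5a by 1.49. On the scale of table reads these medians were 0.04 and 0.10, with 1 and 4 genes higher and 3 and 1 lower, and after quantile normalization 7 and 8 were higher. Of the 13 mitochondrially encoded genes 0 were higher and 1 lower, mt-Nd3 (-1.59, SE 0.43, adjusted p 0.00961), with a median of -0.61. Unstimulated replicate 1 lay with the LPS libraries here: mt-Cytb was at 10.83 there, 12.40 and 11.91 in the other 2 and 10.82, 10.66 and 10.81 with LPS, and it passed only without that library of both genotypes (-1.39, adjusted p 5.8e-05) or on the scale of table reads (-1.46, adjusted p 0.0312). Without the unstimulated replicate 1 libraries of both genotypes 11 of the 13 were lower, with a median of -1.05. Without the D316Y library alone the median was the same and 1 of the 13 was lower. Tricarboxylic acid cycle genes had 7 of 26 higher (26.9%) and 1 lower (3.85%), beside 19.4% and 19% of all genes. The subunits Sdhb and Sdhd (0.89) and the pyruvate dehydrogenase component Dlat (0.98) rose, and mitochondrial isocitrate dehydrogenase Idh2 fell by 0.65. The list median of 0.14 was -0.37 on the scale of table reads and -0.01 after quantile normalization. On the scale of table reads 3 of the list were higher and 11 lower, and after quantile normalization 3 were higher and 4 lower.

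Lipid handling showed losses around PPAR gamma. Pparg, the lipid-activated factor of alternatively activated macrophages, went from 5.32, 4.87 and 4.86 to 0.22, 0.03 and -0.82 log2 CPM (-5.20, SE 0.28, adjusted p 1.23e-08). Of 13 genes in its list 7 were lower and 2 higher (median -0.84), including the secreted lipase inhibitor Angptl4 (-5.49) and lysosomal lipase Lipa (-2.43); the scavenger receptor Msr1 (2.30) and the fatty acid-binding protein Fabp5 (1.68) were higher. Lpl, lipoprotein lipase, fell by 3.11 from a high level of 11.99, 11.19 and 11.04. Of 18 liver X receptor targets 10 were higher and 2 lower, and the receptor gene Nr1h3 rose by 1.85. The mevalonate and cholesterol list, which also feeds the tail of coenzyme Q, had 10 of 24 higher and 0 lower, led by Mvd (1.92), Fdps (1.23) and Acat2 (1.21). Hmgcs1 (0.03, adjusted p 0.933) did not pass, and the median of 0.29 was -0.22 on the scale of table reads. The sterol response letters TCACNCCAC lay in 1 of 20 promoters of this list (5%), against 1.24% of all promoters. Acsl1, which activates long-chain fatty acids, rose from 4.85, 4.33 and 4.35 to 9.10, 9.07 and 9.12 (4.58, SE 0.24), while 7 of 23 genes of fatty acid oxidation were higher and 2 lower.

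Prostaglandin enzymes were re-arranged. Ptgs2, the inducible cyclooxygenase, rose by 3.11 (SE 0.42) and Ptges, which converts its product to prostaglandin E2, by 5.99, from 1.50, 1.92 and 2.06 to 7.72, 7.87 and 7.86 log2 CPM. The constitutive cyclooxygenase Ptgs1 fell by 4.00 and the prostaglandin D synthase Hpgds by 1.64. Hpgd, the dehydrogenase that inactivates prostaglandin E2, fell from 6.66, 7.03 and 6.64 to 0.04, 0.17 and 0.24 (-6.62, SE 0.17, adjusted p 9.74e-12), 98.7-fold lower. In all 7 of 16 were higher and 7 lower, and the median of 0.21 was -0.31 on the scale of table reads and -0.07 after quantile normalization. Among antioxidant genes 12 of 25 were higher and 4 lower: Sod2, the mitochondrial superoxide dismutase, rose by 4.46 (SE 0.16), Prdx5 by 3.29 and Hmox1, which degrades heme, by 1.63, while Cat, catalase, fell by 0.87. The median of 0.38 was -0.14 on the scale of table reads. In iron handling, Fth1 rose by 2.25 (SE 0.22), the ferroxidase Cp by 3.40, and the iron exporter Slc40a1 fell from 7.57, 7.65 and 7.41 to 3.47, 3.64 and 3.36 (-4.06, SE 0.19). The light chain gene Ftl1 did not pass (-0.09, adjusted p 0.716), but was lower on the scale of table reads (-0.61, adjusted p 0.00759) and after quantile normalization (-0.70, adjusted p 0.0187). After quantile normalization, which gives the most abundant gene of each library the same value, Fth1 no longer passed (0.35, adjusted p 0.441).

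Effector and surface genes moved to differing degrees. Of 8 phagocyte oxidase genes 5 were higher, led by Ncf1 (1.57) and Cybb (1.51), the catalytic subunit. Among Fc gamma receptors and kinases 10 of 16 were higher and 3 lower, with Fcgr4 at 2.03 and Fgr at 2.06, while the integrin Itgax fell by 2.32. Clec4e, which encodes the mycobacterial glycolipid receptor Mincle, rose from 3.89, 3.79 and 4.31 to 10.17, 10.03 and 10.21 log2 CPM (6.14, SE 0.16, adjusted p 9.74e-12). The mannose receptor Mrc1 fell from 7.11, 6.18 and 5.89 to 1.36, 2.88 and 2.64 (-4.10, SE 0.38), and with it Clec10a (-5.25), Clec7a (-2.88) and Trem2 (-2.81). Mgl2, a galactose-type lectin related to Clec10a, had 473, 368 and 294 reads without and 1, 1 and 0 with LPS, a ratio of 388 (95% Poisson interval 107 to 3200.5, counting error only). Of 23 scavenger, lectin and clearance receptors 8 were higher and 9 lower. In the inflammasome and cell death list 14 of 24 were higher and 1 lower, with Mefv (3.62), Fas (2.78), Nod1 (2.66) and Casp4 (1.59), the receptor for cytosolic LPS. Matrix and adhesion genes split 11 higher to 11 lower of 27, with a median of 0.26 that was -0.25 on the scale of table reads. Mmp14 rose by 5.12 and Serpinb2, an inhibitor of the plasminogen activators, by 7.49, while urokinase Plau fell by 5.54 and its receptor Plaur by 2.76. Lysosome genes had 4 of 30 higher (13.3%) and 7 lower (23.3%), beside 19.4% and 19% of all genes. Among them Ctsc was at 1.98 and the proton pump subunit Atp6v0d2 at -3.86. The count of lower lysosome genes was 13 with the replicate number as a block and 13 after quantile normalization. On the scale of table reads it was 19, where 49.7% of all genes were lower.

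**Figure D4:**
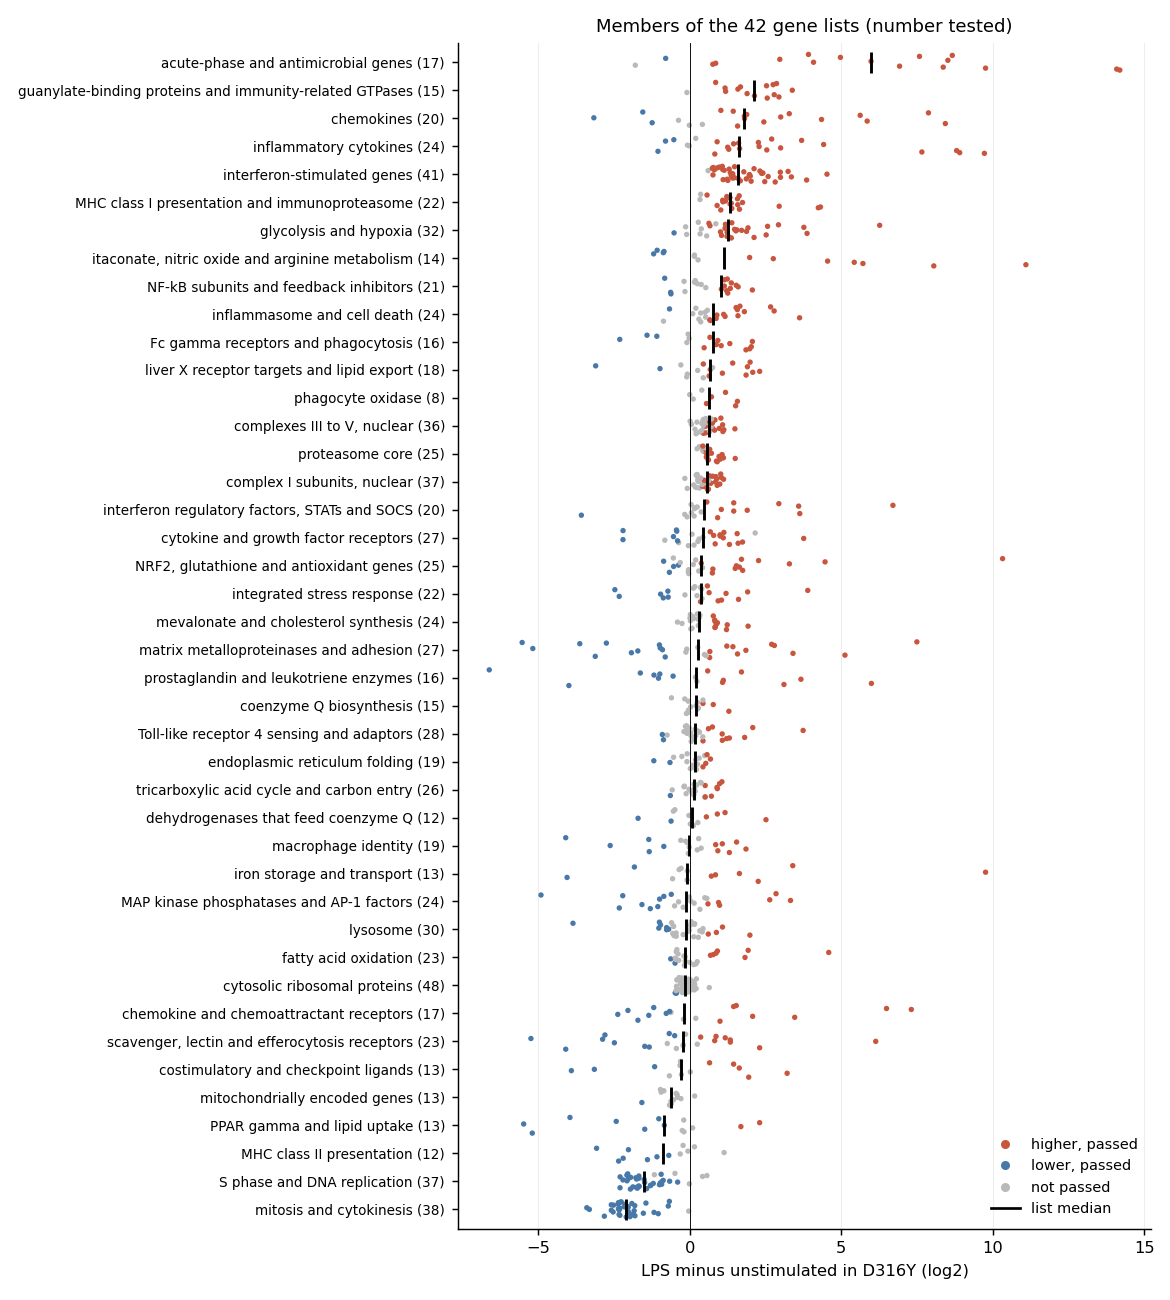
LPS minus unstimulated difference in D316Y (log2, horizontal) of each tested member of the 42 gene lists (rows, number tested in parentheses), red and blue where higher and lower at an adjusted p under 0.05, with a bar at each list median. Medians run from -2.12 for mitosis to 5.98 for acute-phase genes.

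Proliferation genes fell nearly throughout. Of 37 S phase genes 32 were lower and 0 higher (median -1.51), and of 38 mitosis genes 37 were lower and 0 higher (median -2.12, or 4.35-fold), beside 19% of all genes lower. Kif23, a motor of the midzone of dividing cells, went from 4.47, 3.92 and 3.87 to 0.41, 0.53 and 1.11 log2 CPM (-3.40, SE 0.24, adjusted p 1.98e-07). Ccnb2, a mitotic cyclin, fell by 2.83, Cenpa, the centromere histone, by 2.59, Racgap1 by 2.37 and Cdk1 by 1.82. In S phase, Pcna, the polymerase clamp, fell by 1.49, the ribonucleotide reductase subunit Rrm2 by 2.03 and Ccne2 by 2.08. Incenp (-0.04, adjusted p 0.839) was the mitosis gene that did not pass, though it did on the scale of table reads (-0.55, adjusted p 0.00325). The mitosis list held 0.102% of the reads without LPS and 0.0196% with it on average.

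Letters linked with cell cycle genes were searched in their promoters. TTTCCCGC or TTTGGCGC, E2F-type letters, lay in 10 of 33 S phase promoters (30.3%) against 1.57% of all promoters and 3.06% of those of genes tested, and TTTGAA, the core of the cell cycle homology region, in 26 of 33 mitosis promoters (78.8%) against 17.9% and 12.4%. Before the start alone, TTTGAA lay in 36.4% against 16.0% and the E2F letters in 15.2% against 1.30%, so many matches fell in the 50 bases after it. Mcm5 (chr8:75109259-75109558, plus strand), part of the replicative helicase, which fell by 2.31, holds its match on the other strand and Kif23 (chr9:61946750-61947049, minus strand) has it just after the start.
Mcm5: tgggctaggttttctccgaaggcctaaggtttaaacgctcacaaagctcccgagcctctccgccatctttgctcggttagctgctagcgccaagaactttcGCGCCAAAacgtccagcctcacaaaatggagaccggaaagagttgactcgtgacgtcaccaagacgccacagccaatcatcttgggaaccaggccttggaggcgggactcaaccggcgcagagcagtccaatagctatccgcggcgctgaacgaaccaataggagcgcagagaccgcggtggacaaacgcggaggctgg
Kif23: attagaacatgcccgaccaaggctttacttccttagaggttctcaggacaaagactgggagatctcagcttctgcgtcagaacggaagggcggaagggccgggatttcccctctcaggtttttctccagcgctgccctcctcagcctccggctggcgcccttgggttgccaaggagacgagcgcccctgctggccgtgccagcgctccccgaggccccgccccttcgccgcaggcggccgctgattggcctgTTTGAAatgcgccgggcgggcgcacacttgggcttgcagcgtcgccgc

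Beyond the lists, the largest falls among genes of at least 1 log2 CPM included Fgf13, Zbtb16 and Pde1c, which had no read in any LPS library and were at least 50.4-fold, 32.0-fold and 28.2-fold lower. Ighm, the immunoglobulin heavy chain of B cells, went from 8.02, 7.63 and 7.75 to 0.66, 1.38 and -0.30 log2 CPM (-7.22, SE 0.35, adjusted p 5.14e-09). Of 9 B cell markers 2 were measured, Ighm and Cd79b. On the scale of table reads they summed to 267 to 326 CPM without and 6.91 to 9.14 CPM with LPS. Cd79b had a difference of 0.72 (adjusted p 0.0168, but 0.0706 without unstimulated replicate 1 and 0.0794 without LPS replicate 3). The other markers were not analysed here, and the part of B cells in this result was not tested. Dcstamp (-6.22) and Ocstamp (-6.18), which drive fusion into osteoclasts and giant cells, were among the 5 of 7 measured osteoclast markers that fell. Another of them, Acp5, was higher, and Calcr and Oscar were not analysed here. On the scale of table reads the sum of all 7 went from 346 to 558 CPM down to 130 to 177 CPM. Macrophage identity genes had 6 of 19 higher and 5 lower. Fcgr1 (1.85) and Aif1 (1.54) rose and Maf (-0.86) fell.

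Set beside WT, the D316Y response held no gene whose difference passed. The LPS response of WT had 4328 of 11663 genes passed (37.1%), 2114 higher (18.1%) and 2214 lower (19%). Genes that passed in the same direction in both genotypes numbered 3601, which is 79.6% of all D316Y calls and 83.2% of the WT calls. In opposite directions 0 passed. The genotype by LPS interaction passed for 0 of 11918 genes (0%) in limma, with 251 at an unadjusted p under 0.05 (2.11%) and a smallest adjusted p of 0.999, and for 0 with voom weights on the recovered reads, where 257 had an unadjusted p under 0.05. In limma that count ran from 134 without D316Y LPS replicate 2 and 157 without D316Y unstimulated replicate 2 to 407 without D316Y unstimulated replicate 3. With a median SE of 0.30 for the interaction on the log2 scale, small differences between the genotypes were not resolved. A call in 1 genotype alone is therefore no difference between them: of 923 genes that passed in D316Y and not in WT, 897 had the same direction in WT and 64 an unadjusted interaction p under 0.05.

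The interferon-induced genes, like several other lists, sat to one side in this comparison without passing. Their interaction, D316Y response minus WT response, was above 0 for 40 of 41, with a median of 0.65, against 51.7% of all genes and a median of 0.01; 5 had an unadjusted p under 0.05, a count that ran from 0 (without D316Y LPS replicate 2 or unstimulated replicate 2) to 26 (without D316Y unstimulated replicate 3). For guanylate-binding proteins and related GTPases it was above 0 in 15 of 15 with a median of 0.73. It was also above 0 in 20 of 20 interferon regulatory factors, STATs and SOCS and in 23 of 28 sensing genes. Other lists lay to the other side, with 2 of 48 cytosolic ribosomal protein, 0 of 13 mitochondrially encoded and 5 of 37 nuclear complex I genes above 0. Glycolysis and hypoxia genes were near even, at 15 of 32. Members of these lists move together, so the counts are no replicate evidence. Irf7 shows where the values lay: with LPS it was at 11.95, 12.02 and 11.59 log2 CPM in D316Y and 11.61, 11.77 and 11.85 in WT, and without LPS at 8.20, 7.71 and 8.76 against 9.47, 8.61 and 8.59 (interaction 0.78, SE 0.39, adjusted p 0.999). Without the unstimulated replicate 1 libraries the median was 0.45 for the interferon-induced genes and 0.50 for the guanylate-binding proteins and related GTPases. WT unstimulated replicate 1 and D316Y unstimulated replicate 2 each mattered: leaving out either gave 0.40 and 0.43 for the interferon-induced genes. Leaving out D316Y unstimulated replicate 3, D316Y LPS replicate 3 or WT unstimulated replicate 2 or 3 raised that median to between 0.76 and 0.80.

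**Figure D5:**
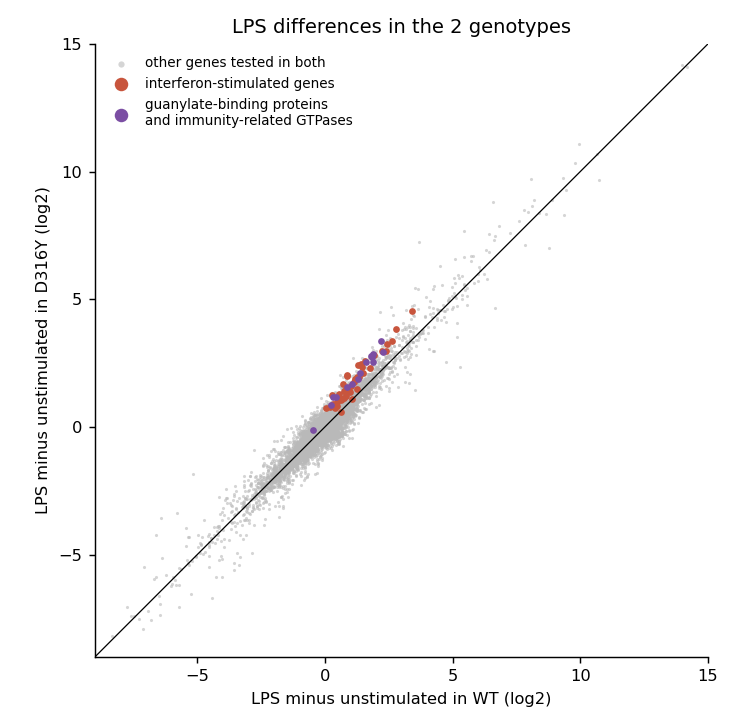
LPS minus unstimulated difference in D316Y (log2, vertical) against that in WT (log2, horizontal) for genes tested in both, with equality as the line, interferon-induced genes in red and guanylate-binding proteins with related GTPases in purple. The coloured points lie above the line for 40 of 41 and 15 of 15 genes, and no single gene passed the interaction test.

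Il12b, P2ry2 and Ripk2 had a small unadjusted interaction p but also failed the adjustment (adjusted p 0.999 for each). Il12b rose by 2.54 in D316Y and 4.74 in WT, and its resting level was -1.09, -0.77 and -1.97 log2 CPM in D316Y against -4.48, -4.25 and -3.19 in WT (interaction -2.20, SE 0.71, unadjusted p 0.00857). These WT resting levels of Il12b stand for a few reads per library, so its WT rise and interaction are imprecise. P2ry2, a nucleotide receptor, rose by 1.28 against 0.58 (unadjusted p 0.00349). Ripk2, the kinase behind NOD1 and NOD2, did not pass in D316Y (0.35) except after quantile normalization or without unstimulated replicate 3 (adjusted p 0.0293 and 0.0365), and was at -0.44 in WT (unadjusted p 0.00391). Ifi208, an interferon-inducible gene high in D316Y cells at rest, rose further by 3.02 (SE 0.41), from 2.32, 1.39 and 3.61 to 5.26, 5.47 and 5.66 log2 CPM, against -1.13, -1.28 and -1.23 to 0.23, 0.74 and 1.02 in WT. Rab4a, an endosomal recycling GTPase, fell by 1.28 in D316Y (SE 0.27, adjusted p 0.00197). The interaction p of Ifi208 and Rab4a and the WT difference of Rab4a are not given here.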

How the data were processed

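RNA was sequenced from 12 macrophage libraries, 3 for each combination of genotype and LPS. The deposited table holds log2 CPM made by the authors, in 12493 rows. Its 52 repeated rows held the same values as the rows they repeat, and each of the 12441 genes was taken once. STAR 2.5.1a, featureCounts 1.4.6-p5, edgeR and limma are named in the submitters' processing notes; which build, annotation and strand setting they were run with is not given in the sources used here, so overlapping or antisense genes and near-identical copies may share reads. Whole reads could be recovered from the deposited log2 values: 100% of values under 200 reads lay within 0.01 of a whole number. Positions are from GENCODE M21 on GRCm38.

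Genes whose mean reached 0 log2 CPM in either group compared were fitted with limma 3.58.1 (R 4.3.3; trend and robust), in 1 model of 4 groups, with two-sided tests and Benjamini-Hochberg adjustment at 0.05. Named genes were the 15 largest rises and falls among genes, predicted ones aside, whose groups did not overlap and whose higher group averaged 1 log2 CPM or more, up to 5 per list, a set of key genes and the smallest interaction p-values; others were picked after their values were seen. Members and the 42 lists were chosen with earlier results of these data known. A group at 0 reads was set to a floor of 3 reads per library. The fit was tested on simulated data. Alternatives covered filters, scalings, prior count, voom weights, a replicate block and each library left out. Figures were drawn with matplotlib 3.10.9 in Python 3.11.15.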

Additional observations from a re-analysis of the deposited data

How the results depend on the processing

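With the reads in the table as library size, 7005 genes passed in D316Y (1052 higher, 5953 lower) and 6880 in WT (914 higher, 5966 lower). On that scale, Coq6 (-0.49), Coq8b (-0.085) and Tlr4 (-0.47) had the other sign, and after quantile normalization, which fixes the values of the most abundant genes, Lyz2 did (-0.62). Leaving out each library in turn gave 3628 to 4255 genes passed in D316Y, 1789 to 2212 higher and 1785 to 2043 lower; without the unstimulated replicate 1 libraries 5217 passed. Same-numbered libraries correlated at -0.21, -0.28 and -0.12 in D316Y and 0.45, 0.25 and -0.12 in WT in their deviations from the group means. With 3 libraries a group these deviations depend on each other, so this check cannot show whether the numbers pair the libraries. A replicate block gave 4850 genes (2475 higher, 2375 lower). The interaction passed for 0 genes under every alternative run, with a smallest adjusted p of 0.088. Of 42 lists, 27 kept the sign of their median in every alternative and 36 in all but the scale of table reads. On the gene strand alone, the letters searched lay in 37.1% of interferon-induced and 12.1% of S phase promoters. Before the start alone, the shares were 40% and 15.2%, and 36.4% for mitosis; the causes were not tested. Depth limits genes near 0 reads: folds against groups at 0 in every library are bounds, and differences resting on a few reads, as for Nos2, Il1a, Mgl2 and Il12b in WT, are imprecise.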

Other observations

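Stress and protein turnover genes moved unevenly. Of 22 genes of the integrated stress response 9 were higher and 6 lower (median 0.35, and -0.17 on the scale of table reads). Nupr1, a stress-induced chromatin protein, rose by 3.89, whereas Psat1, of serine synthesis, fell by 2.33 and the amino acid transporter Slc7a5 by 2.48. Endoplasmic reticulum folding genes had 4 of 19 higher (21.1%) and 2 lower (10.5%), beside 19.4% and 19% of all genes. Herpud1 (-1.19), a degradation factor of that compartment, was among the lower. The list median of 0.18 was -0.33 on the scale of table reads. Core proteasome genes had 19 of 25 higher and 0 lower (median 0.58), with Psma6 at 1.50 and Psmb5 at 1.06, and 7 higher on the scale of table reads. Cytosolic ribosomal protein genes had 0 of 48 higher and 2 lower (median -0.16); their share of reads was 3.59%, 6.24% and 5.78% without LPS and 3.18%, 2.93% and 3.42% with it. The count of lower genes was 20 without the unstimulated replicate 1 libraries of both genotypes, 2 without that of D316Y alone, 10 after quantile normalization and 24 on the scale of table reads. Of 133 long intergenic RNAs tested, 20 were higher and 21 lower, beside 19.4% and 19% of all genes.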
